A study of Mus musculus with 232 samples.

Results

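Glycolysis was followed through 10 genes in single mouse embryonic stem cells (ESCs): Slc2a1, Hk2, Gpi1, Pfkp, Aldoa, Pgk1, Pgam1, Eno1, Pkm and Ldha. They formed a given list of the glucose importer, of enzymes along the pathway and of the lactate-forming enzyme, and each symbol matched 1 of the 42493 genes in the count files. Of the 10 genes, 10 were counted at 5 or more per cell on average, as were 11186 genes in all. They were compared across mock-transfected Dgcr8-/- cells, Dgcr8-/- cells given a mimic of miR-294 or of let-7, and wild-type (WT) V6.5 cells.

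Glycolysis turns glucose into pyruvate in the cytosol and yields ATP without oxygen. Glucose enters through transporters such as Slc2a1 (GLUT1), is trapped as glucose 6-phosphate by a hexokinase such as Hk2, is rearranged by Gpi1 and is committed by phosphofructokinase, of which Pfkp is the platelet type. Aldoa splits the fructose bisphosphate, Pgk1 makes the first ATP of the payoff steps, Pgam1 moves the phosphate group, Eno1 forms phosphoenolpyruvate, Pkm makes pyruvate and the last ATP, and Ldha reduces pyruvate to lactate. Pluripotent stem cells are known for a high rate of glycolysis. The miRNAs of the miR-294 family are abundant in ESCs and promote self-renewal, whereas let-7 miRNAs accumulate on differentiation, and Dgcr8 is required to process the primary transcripts of most miRNAs.

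Dgcr8-/- and WT ESCs were grown in medium with serum, LIF and 2i (PD0325901 and CHIR99021), and single cells were captured on the Fluidigm C1 system, the transfected ones 24 h after transfection. The mock, miR-294 and let-7 groups shared the Dgcr8-/- genotype, which removes canonical miRNA processing, and the WT cells were the parental V6.5 line. The mimic was named let-7i in the cell titles, let-7b in the series design and let-7c in the methods, and it is called let-7 here. The study used 1 chip for each condition, so chip, capture and condition cannot be told apart, and it removed 1 miR-294 and 5 let-7 cells that showed no lowering of known targets. The labels name no separate cultures. Each group therefore counts as 1 sample, cells are not replicates of a condition, and no p-value is given: values are set against the spread over cells.

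The files held 232 sequencing runs of 182 cells with 513521 to 3979274 counts per cell. In 3 pairs of let-7 cells and 1 pair of miR-294 cells, the counts of the 2 cells were as alike as repeat runs of a cell (r 0.98 to 0.991, against at most 0.704 between any other 2 cells), and each pair was counted as 1 cell. This left 60 mock, 57 miR-294, 45 let-7 and 16 WT cells. In 1 let-7 and 1 WT cell, the 2 runs differed as different cells do (r from 0.478 to 0.498), and leaving these 2 cells out changed 1 count of genes past 1.5-fold, given below. ESC markers were present in every group: the median summed level of 10 markers was 10744 normalised counts in mock, 10859.7 in miR-294, 6679 in let-7 and 9092 in WT cells. The let-7 median was below the mock median for each of these markers. The gap was widest for Nanog (44.4 against 584.1) and Sall4 (165.3 against 1039.6) and narrowest for Dppa5a (2765.5 against 3056.1), the most abundant. The part of this in the results was not tested. Of 8 fibroblast markers, which feeder cells would carry, Col1a2 and Col3a1 had no count in any group and only Vim had a median above 0. Their summed level was 0 to 2442 (with a median of 601) in mock, 0 to 992 (with a median of 219) in miR-294, 349 to 5647 (with a median of 1619) in let-7 and 0 to 441 (with a median of 159.8) in WT cells, nearly all of it Vim, and its part in the results was not tested. The median of each of 11 early differentiation markers was 0 in each group. Dgcr8 itself had a median of 11.8, 29.7 and 11.5 normalised counts in mock, miR-294 and let-7 cells and of 58.2 in WT cells. These are counts over the whole gene, which include reads outside the deleted part.

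The sequences of the mimics set which transcripts they can pair with, so they are shown first, with the seed (bases 2 to 8) in capitals. Mature sequences are from RefSeq (GRCm38.p6), 5′ to 3′, and all 3 let-7 members that the sources name are given.
mmu-miR-294-3p: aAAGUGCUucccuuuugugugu
mmu-let-7i-5p: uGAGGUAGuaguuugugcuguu
mmu-let-7c-5p: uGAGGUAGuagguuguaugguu
mmu-let-7b-5p: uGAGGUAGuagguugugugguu
The 3 let-7 members have the same seed and differ downstream of it.

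The longest annotated 3′ UTR of each gene (Gencode M21, GRCm38) was searched for the 7 bases that pair with each seed. The let-7 match CTACCTC was in none of the 10 glycolysis genes, against 10.6% of the 10297 genes tested that have a 3′ UTR. The miR-294 match AGCACTT was in 2 of the 10, Pfkp and Ldha, against 18.2% of those genes. In Pfkp it lay at base 80 of a 1692-base 3′ UTR (chr13:6581374-6581380, reverse strand), and in Ldha at base 18 of 486 (chr7:46855159-46855165, forward strand). Both sites are given with 9 flanking bases on each side and the match in capitals.
Pfkp: ttatttatcAGCACTTtatggaagc
Ldha: ccgtgtcctAGCACTTcactgtcca
A match describes the letters only. Over all genes with a 3′ UTR, the median log2 ratio of miR-294 over mock was -0.48 for genes with the miR-294 match and -0.21 for the others. That of let-7 over mock was -0.037 with and 0.19 without the let-7 match.

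Per unit of transcript length, the 10 genes fell into 3 levels in mock cells. Eno1 had the highest median, at 2567 FPKM (fragments per kilobase of transcript and 1000000 fragments), followed by Aldoa at 1979, Pkm at 1770.3 and Ldha at 1507. Hk2, Pgk1, Gpi1 and Pgam1 lay between 378 and 557 FPKM, and Pfkp (76.5) and Slc2a1 (27.7) were far below the others. Eno1, Pkm, Aldoa and Ldha were the highest 4 in each of the 4 groups, and Slc2a1 and Pfkp the lowest 2. The 4 abundant genes together held 74.3% (WT) to 80.5% (miR-294) of the counts of the 10 genes.

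The levels of a gene between groups are given as normalised counts, that is, counts divided by a size factor for each cell. At the entry of the pathway, Slc2a1 (ENSMUSG00000028645, chr4:119108711-119137983, forward strand) ranged from 0 to 1003 (with a median of 104) in mock cells, from 0 to 1041 (with a median of 194) in miR-294, from 0 to 1700.2 (with a median of 208) in let-7 and from 0.9 to 768 (with a median of 80.8) in WT cells. It had no count in 4 of 60 mock, 1 of 57 miR-294 and 4 of 45 let-7 cells, and a count of 0 allows up to 3 counts, or 5.83 CPM (counts per 1000000) in the shallowest mock cell. The groups overlapped almost wholly, and each held cells near 0. Hk2 (ENSMUSG00000000628, chr6:82725025-82774454, reverse strand), the hexokinase, was counted in all cells, at 141 to 6557 (with a median of 1491) in mock, 56.1 to 3128 (with a median of 1358) in miR-294, 14.3 to 7774 (with a median of 1408) in let-7 and 63.2 to 4909 (with a median of 913) in WT cells. Its medians in the 3 Dgcr8-/- groups lay close together and that of WT cells was lowest, within the spread over cells.

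Gpi1 (ENSMUSG00000036427, chr7:34201330-34230336, reverse strand), which interconverts glucose and fructose 6-phosphate, ranged from 48.5 to 7859.5 (with a median of 1215) normalised counts in mock, from 59.2 to 3039 (with a median of 1063) in miR-294, from 14.1 to 2709 (with a median of 1005) in let-7 and from 118 to 1590.2 (with a median of 717) in WT cells. No WT cell exceeded 1590.2, whereas 20 of 60 mock cells did. Pfkp (ENSMUSG00000021196, chr13:6579768-6648777, reverse strand) was counted in 55 of 60 mock cells (0 to 1431, median 364), 53 of 57 miR-294 cells (0 to 1979.7, median 241), 43 of 45 let-7 cells (0 to 3089.7, median 398) and all 16 WT cells (1.90 to 815 (with a median of 140.1)). Together with Slc2a1, it was the gene whose cells were most spread out.

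In the lower part of the pathway, Aldoa (ENSMUSG00000030695, chr7:126795234-126800751, reverse strand) ranged from 837 to 18444 (with a median of 4058) in mock, from 1258 to 11722 (with a median of 5515) in miR-294, from 633 to 11987 (with a median of 2982) in let-7 and from 975 to 5401 (with a median of 2213) in WT cells. Its level was above the mock median in 47 of 57 miR-294 cells. Pgk1 (ENSMUSG00000062070, chrX:106187100-106203699, forward strand), the first ATP-forming enzyme, ranged from 164 to 3174 (with a median of 1206) in mock, from 418 to 3031 (with a median of 1510.1) in miR-294, from 0 to 2476 (with a median of 863) in let-7 and from 44.2 to 2675 (with a median of 902) in WT cells. Its groups overlapped, with the let-7 and WT medians nearly equal.

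Pgam1 (ENSMUSG00000011752, chr19:41911923-41918660, forward strand), the phosphoglycerate mutase, had another order of the groups than its neighbours in the pathway. It ranged from 143 to 2449.9 (with a median of 969) in mock, from 275 to 3137 (with a median of 1510.3) in miR-294, from 0 to 1778 (with a median of 426) in let-7 and from 548 to 2424 (with a median of 1340.1) in WT cells. The let-7 cells were low: 40 of 45 lay below the mock median, 36 below the 25th percentile of mock cells and 6 below every mock cell. The middle 50% of the cells (interquartile range) spanned 260.2 to 725 in let-7 and 761 to 1299.8 in mock cells, so that these 2 ranges did not overlap. The miR-294 and WT cells were high, with 47 of 57 miR-294 cells above the mock median, although their ranges overlapped that of mock cells.

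Eno1 (ENSMUSG00000063524, chr4:150236721-150248879, forward strand), the enolase, ranged from 768 to 31631 (with a median of 7014) in mock, from 1613 to 14467 (with a median of 7485) in miR-294, from 1438 to 10917 (with a median of 5437) in let-7 and from 1972 to 8334 (with a median of 4205) in WT cells. Pkm (ENSMUSG00000032294, chr9:59656368-59679375, forward strand), the pyruvate kinase, ranged from 1465 to 26465 (with a median of 5943) in mock, from 1725 to 15329 (with a median of 6955) in miR-294, from 671 to 10109 (with a median of 4256) in let-7 and from 1278 to 5717 (with a median of 3289) in WT cells. For both genes miR-294 cells had the highest median, followed by mock, let-7 and WT cells, and 32 of 60 mock cells were above every WT cell in Pkm. The counts are summed over isoforms, so the M1 and M2 forms of Pkm were not separated. Ldha (ENSMUSG00000063229, chr7:46841475-46855627, forward strand), the lactate dehydrogenase subunit, ranged from 837 to 16192 (with a median of 3132) in mock, from 558 to 11576 (with a median of 4658) in miR-294, from 0 to 7463 (with a median of 3075) in let-7 and from 55.5 to 5301 (with a median of 2642) in WT cells. Here 45 of 57 miR-294 cells were above the mock median, and 5 of 45 let-7 cells lay below every mock cell.

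**Figure D1:**
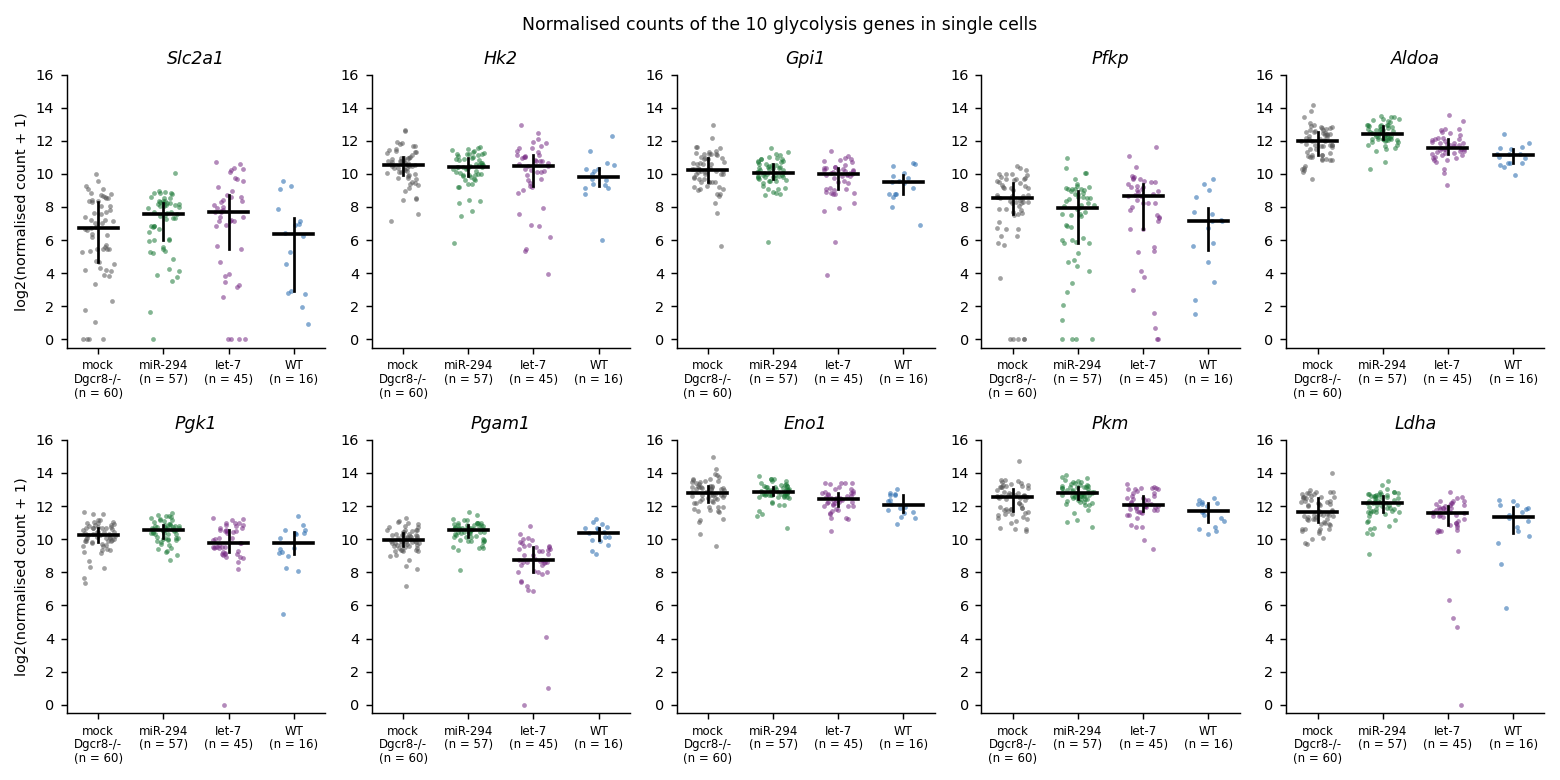
Each panel plots 1 gene, with log2(normalised count + 1) on the y axis and the 4 groups on the x axis; points are cells, thick bars medians and vertical lines the middle 50% of cells. Slc2a1 and Pfkp spread from 0 upwards in the 3 Dgcr8-/- groups, the other genes form compact bands, and the let-7 cells of Pgam1 (median 426) sit below the mock cells (median 969).

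Between groups next to each other in the order of medians, the middle 50% of cells overlapped for 29 of the 30 neighbouring pairs of groups over the 10 genes. The exception was Pgam1 between mock and let-7 cells. The order miR-294, mock, let-7, WT held for Aldoa, Eno1, Pkm and Ldha.

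The comparison of miR-294 with mock cells asks what this ESC miRNA did to the pathway in cells without canonical miRNAs. Aldoa, Pgk1, Pgam1, Pkm and Ldha of the lower pathway and the transporter Slc2a1 had a slightly higher mean after miR-294, and Hk2, Gpi1 and Pfkp of the upper pathway a slightly lower one. The mean of Eno1, also of the lower pathway, was nearly the same in both groups. The middle 50% of cells overlapped between the groups for all 10 genes, as for nearly all genes tested (0.143% lay wholly higher and 0.268% wholly lower). The log2 ratio of mean normalised counts was 0.47 for Pgam1 (1.39-fold), 0.38 for Aldoa, 0.26 for Ldha, 0.24 for Pkm, 0.22 for Pgk1 and 0.21 for Slc2a1. It was -0.041 for Eno1, -0.27 for Hk2, -0.32 for Gpi1 and -0.45 for Pfkp. Thus 6 of the 10 ratios were above 0, or 7 with total-count scaling, where Eno1 was also above 0, and 0 of 10 genes were at least 1.5-fold higher or lower. Among all genes tested, 34.7% had a ratio above 0, 10.8% were at least 1.5-fold higher and 33.6% at least 1.5-fold lower. The median log2 ratio was 0.22 for the 10 genes and -0.26 for all genes tested, and 7 of the 10 lay above that median.

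The median of all genes was shifted downwards on this scale, so the choice of scaling moves the counts. When each cell was scaled to its total count instead, 15.5% of all genes were at least 1.5-fold higher and 25.2% lower, and Pgam1 and Aldoa passed 1.5-fold. Relative to the median of all genes, Pgam1 stood at 0.74 and Aldoa at 0.64, whereas Hk2 stood at -0.002, Gpi1 at -0.051 and Pfkp at -0.18. Among abundant genes (averaging 500 counts or more, 614 genes), the median log2 ratio was -0.090. In pairings of any miR-294 cell with any mock cell, the miR-294 cell had the higher value in 73.1% for Pgam1, 68.5% for Aldoa and 38.7% for Pfkp. Of the 2 genes with a miR-294 seed match, Pfkp was therefore the lowest of the 10 in ratio and Ldha was above 0.

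The comparison of let-7 with mock cells asks the same of a miRNA of differentiated cells. Here 8 of the 10 genes had a ratio below 0, against 40.9% of all genes tested. Of the 8, Hk2 lay near 0 and changed sign under 3 alternatives. Only Slc2a1 and Pgam1 passed 1.5-fold, in opposite directions. Pgam1 was at a log2 ratio of -1.05, 2.07-fold lower (mean 520.3 ± 358 against 1076 ± 482, SD over cells). In only 16.3% of pairings did the let-7 cell have the higher Pgam1 value. Slc2a1, the transporter, was at 1.01, 2.02-fold higher in mean (372 ± 452 against 184 ± 213), with 6 of 45 let-7 cells above every mock cell. Its let-7 cells were the higher ones in 60.2% of pairings, and the middle 50% of cells overlapped.

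The other 8 genes lay within 1.5-fold of mock cells, Gpi1 so near to it that leaving out any of several single cells took it past. Their log2 ratios were -0.57 for Gpi1, -0.45 for Eno1, -0.40 for Ldha, -0.34 for Pkm, -0.32 for Aldoa, -0.24 for Pgk1, -0.007 for Hk2 and 0.12 for Pfkp. Thus 1 of 10 genes was at least 1.5-fold higher and 1 at least 1.5-fold lower, against 30.2% and 16.6% of all genes tested. With total-count scaling these shares of all genes were 26.7% and 17.9%, and 2 of the 10 genes, Pgam1 and Gpi1, were then at least 1.5-fold lower. The middle 50% of let-7 cells lay wholly below that of mock cells for 1 of the 10 genes and for 0.349% of all genes tested. The median log2 ratio was -0.33 for the 10 genes and 0.17 for all genes, and 9 of the 10, all but Slc2a1, lay below that median.

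The comparison of mock Dgcr8-/- with WT cells sets cells without canonical miRNAs against the parental line. Mock cells went through transfection without a mimic, whereas the methods do not say that WT cells did. Genotype, this treatment and chip cannot be told apart here. The comparison shares the mock cells with both comparisons above, so the 3 sets of ratios are not independent. Of the 10 genes, 9 had a higher mean in mock than in WT cells and Pgam1 had a lower one, although with total-count scaling Slc2a1 was lower too. Of all genes tested, 63.3% had a ratio above 0 in the main scaling, so most genes went the same way. Pfkp was 2.07-fold, Gpi1 1.96-fold, Aldoa 1.93-fold, Pkm 1.86-fold and Eno1 1.70-fold higher in mock cells. Below 1.5-fold were Ldha (1.49-fold), Hk2 (1.40-fold), Pgk1 (1.30-fold) and Slc2a1 (1.06-fold), and Pgam1 was 1.26-fold lower. Thus 5 of 10 genes were at least 1.5-fold higher and 0 lower, against 41.6% and 16.8% of all genes tested, so the count for the 10 genes was near that of genes in general. The middle 50% of cells overlapped for all 10 genes, whereas 1.98% of all genes lay wholly higher and 0.635% wholly lower in mock cells.

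The median of all genes was shifted upwards in this comparison, with a median log2 ratio of 0.35, against 0.67 for the 10 genes. With total-count scaling, 35.1% of all genes were at least 1.5-fold higher and 22% lower, and with ratios centred on the median of all genes 31.9% and 27.3%. Of the 10 genes, 4 were then higher and 0 lower with total-count scaling, and 3 higher and 1 lower with centring. Relative to the median of all genes, Pfkp, Gpi1, Aldoa, Pkm and Eno1 stood between 0.42 and 0.70 and Pgam1 at -0.68. With 16 WT cells, single cells weighed on the values. Without the 2 cells whose runs differed, 6 genes were at least 1.5-fold higher in place of 5. Without WT cell 25, the log2 ratio of Slc2a1 went from 0.087 to 0.46 and that of Hk2 from 0.48 to 0.80, past 1.5-fold. Without mock cell 3, that of Slc2a1 was -0.025. No direction is read for Slc2a1 here.

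**Figure D2:**
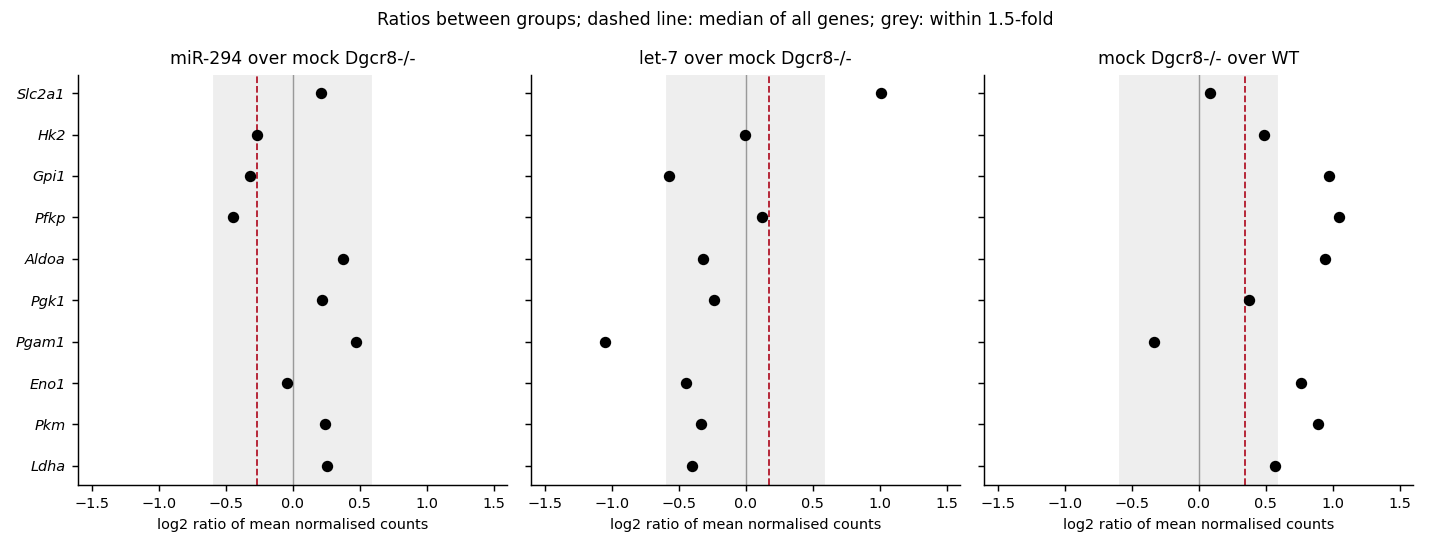
The x axis gives the log2 ratio of mean normalised counts for each of the 10 genes (y axis) in the 3 comparisons; the dashed line is the median of all genes tested and the grey band lies within 1.5-fold. After miR-294 most points lie right of the dashed line, after let-7 all but Slc2a1 lie left of it, and Pgam1 lies farthest left in the 2 comparisons of let-7 over mock and mock over WT.

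The summed share of the 10 genes ordered the groups in the same way as Aldoa, Eno1, Pkm and Ldha. These 4 hold 74.3% (WT) to 80.5% (miR-294) of the sum, so it largely has to follow them. The 10 genes held 2.35% ± 0.647 of a cell's counts in miR-294 cells (SD, 57 cells), 1.87% ± 0.876 in mock (60 cells), 1.39% ± 0.469 in let-7 (45 cells) and 1.31% ± 0.454 in WT cells (16 cells). Over all cells of a group together, the shares were 2.31% (2.30% to 2.31%, exact 95% Poisson interval), 1.89% (1.89% to 1.90%), 1.40% (1.39% to 1.40%) and 1.33% (1.32% to 1.33%). These intervals cover counting error only and are far narrower than the spread over cells. Single cells ranged from 0.677% to 5.89% in mock, from 0.562% to 3.96% in miR-294, from 0.358% to 2.60% in let-7 and from 0.581% to 1.98% in WT cells. The groups overlapped, and the middle 50% of miR-294 cells (2.04% to 2.74%) lay above that of let-7 (1.06% to 1.77%) and of WT cells (0.937% to 1.65%).

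The highest share, 5.89%, belonged to mock cell 57, whose summed level of 108939.6 normalised counts was well above that of the next mock cell, at 59082. In this cell Eno1 reached 31631, Pkm 26465, Aldoa 18444, Ldha 16192, Gpi1 7859.5 and Pgk1 3174, the highest value of each gene among all mock cells, whereas Pgam1 was 1028, close to the mock median. Without it, the mean share in mock cells was 1.797% and the log2 ratio of Eno1 between miR-294 and mock cells changed from -0.041 to 0.034. The choice to leave it out was made after the values were seen.

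**Figure D3:**
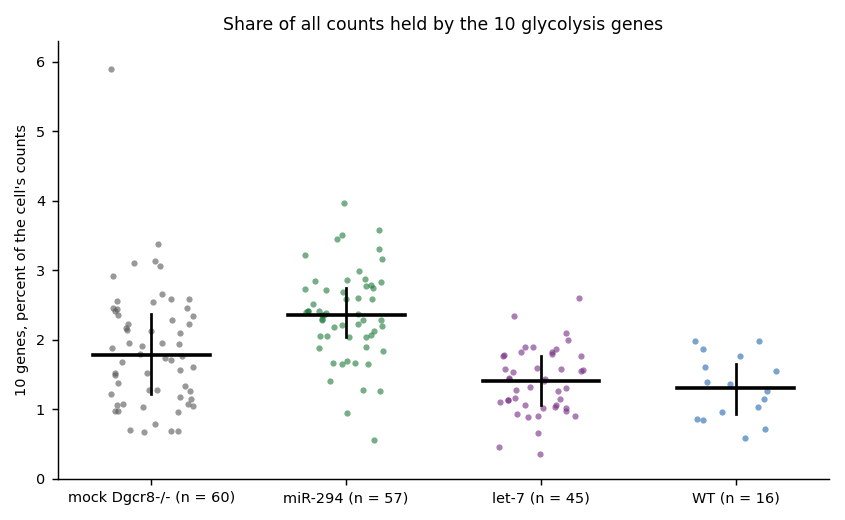
The y axis gives the percentage of a cell's counts held by the 10 genes, for each cell (points) of the 4 groups on the x axis; thick bars are medians and vertical lines the middle 50% of cells. The medians lie at 2.36% in miR-294, 1.78% in mock, 1.41% in let-7 and 1.31% in WT cells, and 1 mock cell stands at 5.89%.

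Within a cell, the proportions among the 10 genes do not depend on scaling. They were alike in the 4 groups for most genes: the median share of the 10-gene total was 24.5% to 27.2% for Eno1, 18.7% to 22.8% for Pkm, 11.8% to 14.9% for Ldha and 4.71% to 5.04% for Pgk1. Aldoa took 18.6% in miR-294 cells and 12.8% in WT cells. Pgam1 varied most among the genes above 2% in every group: its median was 7.17% in WT, 4.71% in miR-294, 4.03% in mock and 2.22% in let-7 cells.

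The lowest Pgam1 share among the 16 WT cells was 5.31% of the 10-gene total. This value was used as a limit, which all WT cells meet by definition. In 41 of 45 let-7 cells, 48 of 60 mock cells and 34 of 57 miR-294 cells the share was below it. The middle 50% of WT cells (6.02% to 9.46%) lay above that of mock (2.99% to 5.17%), miR-294 (3.81% to 5.71%) and let-7 cells (1.25% to 3.01%). Pgam1 was picked out of the 10 on these same data, and no background over other genes is given for this share. For Pgam1, therefore, the order of the groups in this share was WT, miR-294, mock and let-7. Pooled over cells, it had 1018 CPM in WT (1005 to 1030.3, exact 95% Poisson interval), 1118 in miR-294, 696 in mock and 329 in let-7 cells.

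**Figure D4:**
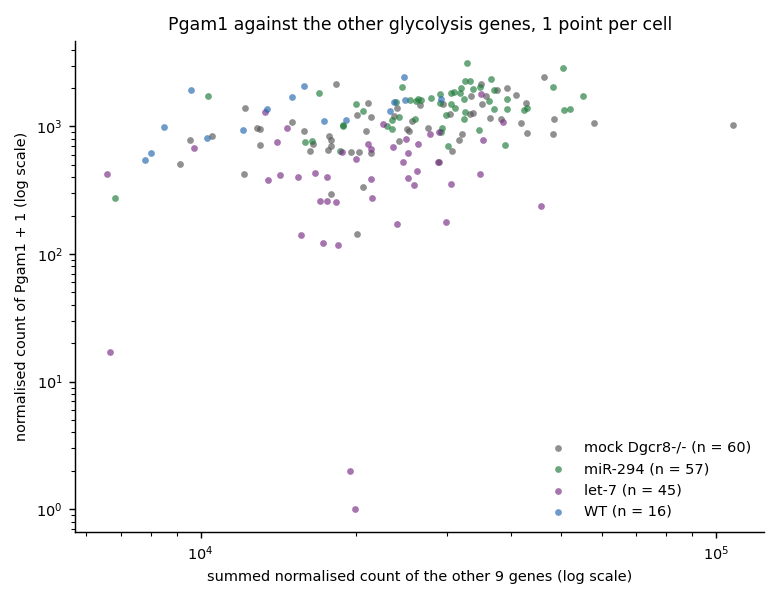
Each point is a cell, with the summed normalised count of the other 9 genes on the x axis and that of Pgam1 plus 1 on the y axis, both on log scales, coloured by group. At a like level of the other genes many let-7 cells lie below the cells of the other groups and the WT cells are among the highest; 1 let-7 cell has no Pgam1 count.

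Technical spread was small beside the spread between cells. In 48 cells sequenced in 2 runs that matched, the SD between runs of a cell on the log2(normalised count + 1) scale was 0.087 for Hk2, 0.12 for Ldha, 0.14 for Pkm and 0.35 for Slc2a1, the highest of the 10. The SD between cells of a group was 0.70 for Eno1, the lowest, 1.18 for Pgam1, 1.58 for Ldha and 2.71 for Pfkp, the highest. Repeat runs share 1 cDNA, so the SD between runs holds sequencing error but not that of capture and amplification.

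Relative to the mean, the 10 genes had a lower spread over cells than the median of all genes. The coefficient of variation (CV, SD over mean) had a median over the 10 genes of 0.672 in mock, 0.602 in WT, 0.576 in let-7 and 0.432 in miR-294 cells, against 1.68 to 1.84 over all genes tested, most of which are less abundant. In miR-294 cells the CV was lower than in mock cells for 9 of the 10 genes, as for Eno1 (0.335 against 0.619), Gpi1 (0.485 against 0.803) and Aldoa (0.404 against 0.69), and higher for Pfkp (1.12 against 0.799). The median CV over all genes tested was also lower in miR-294 (1.681) than in mock cells (1.815), and the share of all genes with a lower CV is not given. Mock cell 57 held the highest mock value of Eno1, Gpi1 and Aldoa, so their mock CVs rest partly on that cell. The CVs of the 10 genes changed little when every cell was thinned to 500000 counts, with medians of 0.432 in miR-294 and 0.658 in mock cells.

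Across the cells of a group, the abundant enzymes varied together. The median Spearman correlation over the 45 pairs of the 10 genes was 0.30 in mock, 0.40 in WT, 0.25 in let-7 and 0.31 in miR-294 cells. Over pairs of any genes averaging 100 counts or more, it was 0.007 to 0.011. This background is not matched for abundance: it holds up to 3315 genes, whereas only 614 genes average 500 counts or more. Most of its genes are thus far less abundant than Aldoa, Eno1, Pkm and Ldha. The correlations are descriptions: the cells of a group share a chip and a size factor enters both genes of a pair. The highest pair was Eno1 with Pkm, at 0.87 in mock, 0.86 in WT, 0.71 in miR-294 and 0.66 in let-7 cells. Next came Aldoa with Pkm (mean over groups 0.68), Pkm with Ldha (0.64), Aldoa with Eno1 (0.64) and Pgk1 with Eno1 (0.60).

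The genes at the top of the pathway were tied to Aldoa, Pgk1, Eno1, Pkm and Ldha to different degrees. Over these 5 enzymes, the mean correlation over groups ran from 0.34 (Pgk1) to 0.43 (Pkm) for Gpi1, from 0.22 (Ldha) to 0.37 (Aldoa) for Slc2a1, from 0.20 (Eno1) to 0.33 (Pgk1) for Pfkp and from 0.16 (Pkm) to 0.26 (Ldha) for Hk2. Slc2a1 varied between groups, with a correlation with Pkm of 0.62 in WT and -0.002 in mock cells. The lowest means were those of Hk2 with Pfkp (-0.060) and with Gpi1 (0.012) and of Slc2a1 with Pfkp (0.036) and with Pgam1 (0.055). The values of Slc2a1 and Pfkp rest on lower counts. Pgam1 with Eno1 was at 0.51 in mock, 0.59 in WT, 0.31 in miR-294 and 0.33 in let-7 cells. Pairs above 0.5 numbered 13 of 45 in mock, 17 in WT, 9 in miR-294 and 3 in let-7 cells, and the WT values rest on 16 cells. The groups differ in number of cells, and the share of all gene pairs above 0.5 is not given. These counts are therefore not ranked between groups.

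**Figure D5:**
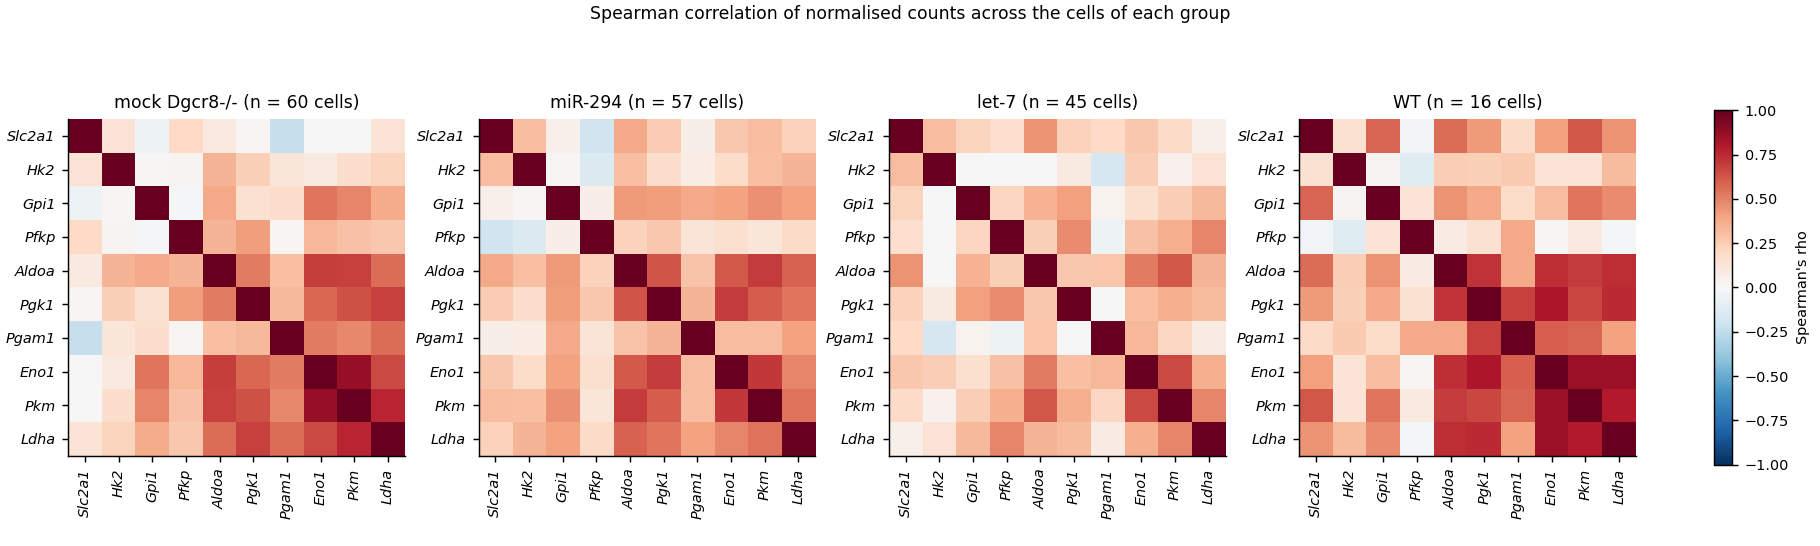
Each square is the Spearman correlation (colour scale from -1 to 1) of 2 of the 10 genes across the cells of the group named above it. The darkest square off the diagonal in each group, or close to it, is Eno1 with Pkm at the lower right, the squares of let-7 cells are palest there, and the row of Hk2 is pale in each group.

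The summed level of the 10 genes was set against measures of depth. Its Spearman correlation with the total count of the cell was 0.028 in mock, 0.056 in let-7, -0.22 in miR-294 and 0.28 in WT cells. With the number of genes detected it was -0.19, 0.10, -0.43 and -0.17 in the same order, and with the size factor -0.013, -0.063, -0.34 and 0.053, so in miR-294 cells the summed level was lower where more genes were detected. It also moved with the share of mitochondrially encoded counts, at -0.70 in mock, -0.50 in miR-294, -0.15 in let-7 and -0.097 in WT cells. The median of that share was 3.68% in mock, 3.38% in let-7, 2.73% in WT and 2.38% in miR-294 cells. The part of these measures in the differences between groups was not tested.

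The genes that followed the summed level of the 10 genes most closely over cells were mainly other genes of glycolysis and copies of Eno1. That sum rests mostly on Aldoa, Eno1, Pkm and Ldha, so it says little of the sparser members. Among 5385 genes that averaged 50 counts or more, the correlation with the summed level of the 10 genes, averaged over the 4 groups, was highest for Eno1b (0.84), Gapdh (0.74), Tpi1 (0.63), Gm4735 (0.57) and Hsp90ab1 (0.55). Eno1b and Gm4735 share 27.7% and 20.9% of the 31-base stretches of Eno1, so reads can be split between them and Eno1. Eno1b held a mean of 3814 counts per cell, so the level of Eno1 is uncertain by that much. With the copies added, the log2 ratios of Eno1 were -0.053 for miR-294 over mock, -0.41 for let-7 over mock and 0.82 for mock over WT. The copies of the other 9 genes held under 10 counts per cell together for each gene. Gapdh, the dehydrogenase between Aldoa and Pgk1, correlated at 0.90 in mock, 0.73 in WT, 0.66 in let-7 and 0.67 in miR-294 cells, and Tpi1, the triose phosphate isomerase, at 0.57 to 0.70.

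The promoters of the 10 genes were searched for the E-box CACGTG, which MYC family proteins bind, and for ACGTG and GCGTG, the core of the hypoxia response element, on both strands. All 10 genes matched the RefSeq promoter table (GRCm38.p6, 250 bases before to 50 after a start), with 16 promoters. CACGTG was in 1 of the 16, against 7.15% of all promoters in the table. ACGTG, which each CACGTG also contains, was in 8 of 16 against 19.6%, and GCGTG in 8 of 16 against 32.4%. Either core was in a promoter of 9 of the 10 genes, all but Gpi1, against 46.7% of all genes. Some promoters of a gene overlap each other. The 10 genes have 16 promoters, whereas all 27025 genes of the table have 32851, so the shares per gene are not matched for promoter number. The background holds every gene of the table, counted in these cells or not, and is not matched for base composition. No enrichment is read from these shares. The promoter with the 2 E-boxes, of Ldha (chr7:46845554-46845853, forward strand), and that of Pgam1 (chr19:41911621-41911920, forward strand), the gene that departed from the others, are shown with the ACGTG and GCGTG cores of either strand in capitals, the E-boxes appearing as CACGTG.
Ldha: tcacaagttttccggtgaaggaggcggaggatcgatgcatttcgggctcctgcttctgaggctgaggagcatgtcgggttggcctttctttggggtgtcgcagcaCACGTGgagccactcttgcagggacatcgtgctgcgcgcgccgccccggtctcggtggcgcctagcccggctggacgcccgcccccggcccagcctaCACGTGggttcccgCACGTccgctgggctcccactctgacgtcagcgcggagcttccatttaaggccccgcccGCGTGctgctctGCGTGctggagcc
Pgam1: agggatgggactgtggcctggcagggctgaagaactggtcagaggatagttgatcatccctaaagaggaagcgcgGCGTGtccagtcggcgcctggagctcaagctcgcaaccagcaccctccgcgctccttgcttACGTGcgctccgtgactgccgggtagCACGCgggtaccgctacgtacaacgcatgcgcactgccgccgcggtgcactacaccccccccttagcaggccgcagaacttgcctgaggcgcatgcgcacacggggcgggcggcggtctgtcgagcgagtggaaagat
A motif here is a run of letters, not a measured binding site.

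Of 21 other glycolysis genes listed, 12 passed the filter on low counts. Most are isoenzymes that stand in for 1 of the 10 genes in other tissues, and most were sparse. Gapdh, the most abundant, ranged from 3340.4 to 21390.1 in mock (median 10263), with medians of 10268 in miR-294, 7929 in let-7 and 5475 in WT cells. Tpi1 had medians of 907, 1007, 845 and 504 in the same order. Both were thus higher in mock than in WT cells, by 1.71-fold and 2.13-fold in mean, and within 1.5-fold in the other comparisons.

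The transporter Slc2a3 (GLUT3) went the other way, with medians of 1010.3 in WT, 664 in miR-294, 437 in mock and 148 in let-7 cells. It had the order of the groups seen for Pgam1 with WT and miR-294 exchanged, and log2 ratios of -1.27 for mock over WT, 0.49 for miR-294 over mock and -0.73 for let-7 over mock. Pfkl, the liver phosphofructokinase, was 4.81-fold higher in mock than in WT cells and 1.61-fold higher in miR-294 than in mock cells. Hk1, Pfkm, Aldoc, Pgam2, Adpgk and Eno3 were 10.2-, 6.41-, 9.64-, 5.85-, 2.46- and 1.99-fold higher in mean in mock than in WT cells, but WT cells with a count numbered 5, 5, 4, 1, 7 and 8 of 16. The same 6 genes were lower in mean in miR-294 than in mock cells, at log2 ratios from -2.15 (Pgam2) to -0.74 (Aldoc). After let-7, Hk1 was at 0.68, Pfkl at 0.59, Pgam2 at 0.70, Eno3 at 0.38, Aldoc at -0.021, Pfkm at -0.58 and Adpgk at -0.87. Ldhb, the other lactate dehydrogenase subunit, had log2 ratios of 0.18, -0.22 and -0.54 in the 3 comparisons (miR-294 over mock, let-7 over mock, mock over WT), and Bpgm of 1.40, 0.20 and 0.70.

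Counted over the list, 10 of 12 genes were at least 1.5-fold higher and 1 lower in mock than in WT cells, with a median log2 ratio of 1.196 against 0.35 for all genes. After miR-294, 2 were higher and 6 lower (median -0.39 against -0.26), and after let-7, 3 were higher and 2 lower (median -0.12 against 0.17).

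Downstream of the pathway, 14 of 16 genes of lactate export and pyruvate entry into mitochondria were tested. In miR-294 cells, 0 were at least 1.5-fold higher and 5 lower than in mock cells, a share near the 33.6% of all genes tested, led by Mpc1, a subunit of the mitochondrial pyruvate carrier. Mock cells held 0 to 542 normalised counts of it, with a median of 205, whereas miR-294 cells held 0 to 263, with a median of 48.7, a log2 ratio of -2.02. In let-7 cells its median was 254 and in WT cells 33.1, so miR-294 and WT cells were low and the other 2 groups high. Next were the phosphatase Pdp2 (-1.33), Mpc2, the other carrier subunit (-1.11) and Pdk1, a kinase that inhibits pyruvate dehydrogenase (-0.92). In let-7 cells 2 genes were higher (Pdhb 0.83, Mpc2 0.75) and 2 lower (Pdp2 -1.05, and Pdk4, which had no count in any let-7 cell and a count in 5 of 60 mock cells, so no ratio is given). In mock over WT cells 8 were higher, led by the lactate exporter Slc16a3 (2.24), Mpc1 (1.91), Pdp2 (1.52) and Mpc2 (1.14), and 1 was lower (Pdk4, -4.21). Slc16a3 and Pdk4 had a count in 2 WT cells each, and without WT cell 25 the log2 ratio of Pdk4 was -0.915. The median log2 ratio over the list was -0.14 for miR-294, -0.049 for let-7 and 0.60 for mock over WT, against -0.26, 0.17 and 0.35 for all genes.

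The enzymes that set fructose 2,6-bisphosphate, the activator of phosphofructokinase, and related phosphatases were sparse: 5 of 7 were tested and their ratios rest on few cells. Without mock cell 3, Pfkfb3 went to 0.026 for miR-294 over mock and to 0.19 for let-7 over mock, and without WT cell 51, Fbp2 went to 2.83 for mock over WT, so no direction is read for these. Pfkfb3 had a count in 13 of 60 mock and 2 of 16 WT cells. In miR-294 cells 3 were lower (Pfkfb1 -2.15, Pfkfb3 -1.21, Pfkfb2 -0.80). In let-7 cells Pfkfb1 (-5.58), Pfkfb3 (-1.04) and Tigar (-0.59) were lower and Fbp2 (1.88) and Pfkfb2 (1.48) higher. For mock over WT, Pfkfb3 (2.93), Pfkfb2 (2.37), Pfkfb1 (1.30) and Tigar (0.66) were higher and Fbp2 (-0.94) lower. The medians over the list were -0.80, -0.59 and 1.30 in the 3 comparisons, against the all-gene medians of -0.26, 0.17 and 0.35.

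All 7 genes of the pentose phosphate pathway, which branches off glucose 6-phosphate, were tested. In miR-294 cells Rpia (0.68) was higher and Pgd (-0.62) lower. In let-7 cells Rpia (2.49) and Pgls (1.15) were higher, although the Rpia mean (129.9) rests on few cells, with a median of 23.3 and a highest value of 2440.5. The miR-294 mean of Rpia rests on 1 such cell: without miR-294 cell 72 its log2 ratio was -0.97, and its median was 6.90, below that of mock cells (14.5). In mock over WT cells Pgls (1.81), Pgd (1.18), Rpia (0.72) and Tkt (0.61) were higher. The medians over the list were 0.001, 0.27 and 0.61, each above the median of all genes in its comparison.

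Of 14 regulators of glycolytic genes, 13 were tested, and Lin28a and Mycn are given first. Lin28a, an RNA-binding protein that blocks let-7 maturation, had a count in 15 of 16 WT cells (median 265), 3 of 60 mock cells, 26 of 57 miR-294 cells and 1 of 45 let-7 cells. Its log2 ratios were -6.57 for mock over WT and 3.78 for miR-294 over mock, the largest of the list in each. Mycn had a median of 44.9 in mock, 92.3 in miR-294, 14 in WT and 0 in let-7 cells, where 12 of 45 cells had a count. Its log2 ratio of let-7 over mock was -2.65.

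In miR-294 cells Mlxip (1.84), Vhl (1.41) and Myc (1.12) were also higher and Mxi1 (-1.92), Max (-1.28) and Epas1 (-0.94) lower. In let-7 cells Vhl (2.51), Arnt (1.25) and Epas1 (0.96) were higher and Max (-0.90) lower. For mock over WT, Epas1 (3.06), Mxi1 (3.06), Mycn (1.72) and Lin28b (1.06) were higher and Vhl (-1.93) and Myc (-1.82) lower, beside Lin28a and Hif1a. Without WT cell 32, Myc was at -0.18, and without WT cell 43, Hif1a was at -0.30. Mycl passed 1.5-fold in 2 comparisons only through single cells, and no direction is read: let-7 over mock was -3.65, but 0.003 without mock cell 57, and mock over WT was -1.25, but 2.11 without WT cell 37. Most of these genes had no count in many cells of each group. The list thus gave 4 higher and 3 lower genes after miR-294, 3 and 3 after let-7 and 4 and 5 in mock over WT, Mycl and Hif1a included, and the medians were 0.008, 0.013 and -0.21, against -0.26, 0.17 and 0.35 for all genes. Hif1a, the main factor of the hypoxia response, had medians of 7.50 in mock, 24.1 in miR-294, 10.4 in let-7 and 18.2 in WT cells, and single cells up to 594.

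Other hypoxia-response genes showed few differences, with 9 of 13 tested. In each of the miR-294 and let-7 comparisons 1 gene was higher (P4ha2, 1.17 and 1.86) and 1 lower (Ero1l, -1.05 and -0.83). In mock over WT cells P4ha1 (3.45), Ndrg1 (2.13) and Bnip3l (0.65) were higher and none lower. The medians over the list were -0.22, 0.071 and 0.44, against -0.26, 0.17 and 0.35 for all genes tested.

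Since many genes of these lists were sparse, each cell was also left out in turn, a choice made after the values were seen. For miR-294 over mock, 19 of 27 genes past 1.5-fold stayed so in the same direction whichever cell was left out. For let-7 over mock 16 of 24 did, and for mock over WT 30 of 41. The log2 ratio turned in sign for Pfkfb3, Rpia and Pdk4 (0.67 without mock cell 4) in miR-294 over mock, for Pfkfb3 and Mycl in let-7 over mock and for Fbp2 and Mycl in mock over WT. In miR-294 over mock, the genes that kept their sign but came within 1.5-fold were Adpgk (-0.24 without mock cell 35), Pfkl (0.56 without miR-294 cell 5), Aldoc (-0.56 without mock cell 57), Pfkfb2 (-0.48 without mock cell 93) and Pgd (-0.57 without mock cell 12). In let-7 over mock they were Hk1 (0.44 without let-7 cell 17), Adpgk (-0.34 without mock cell 35), Pfkl (0.34 without let-7 cell 18), Pgam2 (0.032 without let-7 cell 16), Tigar (-0.51 without mock cell 65) and Ero1l (-0.57 without mock cell 3). In mock over WT they were Bpgm (0.49 without mock cell 75), Bsg (0.51 without WT cell 77), Dld (0.40 without mock cell 96), Pdk1 (0.58 without WT cell 32), Tigar (0.58 without WT cell 51), Tkt (0.49 without mock cell 64) and Bnip3l (0.56 without WT cell 95), beside Myc and Hif1a. All counts of genes in these lists stand beside shares of all genes tested of 10.8% higher and 33.6% lower for miR-294 over mock, 30.2% and 16.6% for let-7 over mock and 41.6% and 16.8% for mock over WT.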

How the data were processed

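Single ESCs were sequenced after capture on the Fluidigm C1 system, with Nextera XT libraries on a HiSeq. The authors aligned the reads with RSEM 1.2.19 to Gencode M4 transcripts (GRCm38) and deposited for each run 2 values per gene. The deposited expected counts are estimated counts, not normalized. The deposited FPKM values are scaled for length and depth by the authors and were used only for levels between genes and as an alternative.

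All runs of a cell were added up and the sums rounded to whole numbers. Genes averaging 5 or more over the 182 labelled cells were kept, and counts were divided by size factors (median of ratios over 864 genes counted in every cell). Pairs of cells whose counts agreed like repeat runs were summed. A ratio is the log2 of (mean + 1) over (mean + 1), so low genes are understated, and "higher" or "lower" means at least 1.5-fold. No test was run, since each group is 1 sample. In the files 41674 IDs matched a symbol. The genes named are the 10 genes, up to 4 genes past 1.5-fold in each direction of each list (all tested genes for glycolysis) and the 5 genes nearest in correlation. The 10 genes and all lists were chosen with earlier results of these data known. Copies are genes that hold at least 2% of a gene's 31-base stretches in Gencode M21, a limit set after the overlaps were seen. The lists were compared under the main scaling only. The ratio code was tested on simulated data. Python 3.11.15, scipy 1.17.1 and edgeR 4.0.16 (TMM factors only) were used. The alternatives were other scalings (total count, TMM, centring), pooled counts, medians, log2 means, other pseudocount, filter and fold, the first run only, cells left out or counted separately, copies added, and FPKM. For CVs and shares of cells with a count, cells were also thinned to 500000 counts, and Pearson's r was tried for the correlations.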

Additional observations from a re-analysis of the deposited data

How the results depend on the processing

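With 1 sample a group, no call rests on a test, and no paired analysis was possible because a number in the title names a cell within its own group, cells of different groups are different cells from different chips, and the ratios come from no test. The median ratio of the 10 genes and their share of counts moved by less than the spread over genes or cells under each of the 17 alternatives that apply to the ratio and 12 that apply to the share, 2 of them chosen after seeing the data. A change of scaling moves all genes together, so that spread does not measure how stable the median is. The median log2 ratio ran from 0.133 to 0.48 for miR-294 over mock and from -0.5 to -0.248 for let-7 over mock. For mock over WT it ran from 0.321 to 0.723. The counts of genes past 1.5-fold are small and several values lie near that limit. For miR-294 over mock, 0 genes were higher in the main analysis, 2 with total-count scaling, with centring on the median of all genes, with medians over cells and with FPKM, and 1 with TMM factors, with pooled counts and with means of log2 values. There, 0 were lower in the main analysis and 1 with medians over cells, with means of log2 values and without cells under 1000000 counts. For let-7 over mock, 1 was lower in the main analysis, 2 with total-count scaling, TMM factors, pooled counts, means of log2 values, the first run only and FPKM, and 3 with centring. For mock over WT, 5 were higher in the main analysis, 4 with total-count scaling and with pooled counts, and 3 with centring. It was 6 with medians over cells and without the 2 cells whose runs differed, 8 with means of log2 values and 1 at 2-fold. In this comparison 1 in place of 0 was lower with centring. Leaving out each cell in turn gave 0 for miR-294 over mock in both directions, 1 higher and 1 to 2 lower for let-7 over mock, and 5 to 7 higher for mock over WT. The sign of Eno1 in miR-294 over mock was kept in 9 of 17 alternatives, of Hk2 in let-7 over mock in 14, of Pfkp in let-7 over mock in 15 and of Slc2a1 in mock over WT in 12, and that of each of the other 26 ratios in all 17. Pgam1 in let-7 over mock ranged from -1.53 to -1.03. Thinned to 500000 counts, the lowest share of WT cells with a count, for Slc2a1, was 87.5% in place of 100%.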

Other observations

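At the other end of the list of correlations with the summed level of the 10 genes stood mt-Atp8, a mitochondrially encoded ATP synthase subunit, at -0.73 in mock, -0.65 in WT, -0.40 in let-7 and -0.67 in miR-294 cells. The ribosomal protein genes Rpl39 (mean over the groups -0.48), Rpl23 (-0.47) and Rpl22l1 (-0.46) were next. These genes were singled out after their values were seen.

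After the 5 genes nearest in correlation with the summed level, Tuba1b (0.51), the malate dehydrogenase Mdh2 (0.51) and Mif (0.51) came next, again named after their values were seen. The cell with the lowest summed level in each group still held 8345 (WT), 9606 (mock), 7101 (miR-294) or 6702 (let-7) normalised counts of the 10 genes.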
